A study of Mus musculus with 6 samples.

Results

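Mesenchymal transcription factors of the mesonephros were examined as a group of 10 genes, chosen by name: Tcf21, the COUP-TF genes Nr2f1 and Nr2f2, Osr2, Foxd1, Twist1, Twist2, Prrx1, Meis1 and Meis2. All 10 were found by symbol among the 20033 genes of the deposited table, and all 10 passed the filter on low values that 17577 genes passed. Their levels were measured by RNA sequencing of male mouse mesonephroi at E12.5, with 3 libraries labelled control and 3 labelled knockout for Wnt9b, each from a separately numbered mouse. Poly(A) RNA isolated with the PicoPure kit was read as paired ends of 150 bases. The design text calls the knockout global, that is, not limited to a cell type. The genotype field gives the controls as heterozygous and the design text gives them as wild type, and both are simply termed controls below. The labels give no litter, strain, treatment or batch, so p-values measure the spread between these mice only. The question the design puts is how loss of Wnt9b, a Wnt ligand secreted by the duct epithelium, alters the mesonephros in which the Wolffian duct responds to androgens.

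The mesonephros is a temporary embryonic kidney in which epithelial ducts and tubules lie in loose mesenchyme. Mesenchymal cells are defined less by surface structure than by sets of transcription factors that act in combination, and several of the 10 genes belong to families whose members bind the same DNA sites. Tcf21, Twist1 and Twist2 encode basic helix-loop-helix proteins that pair with E proteins and bind E-boxes. Nr2f1 and Nr2f2 encode orphan nuclear receptors, and Nr2f2 in mesonephric mesenchyme is known to promote removal of the Wolffian duct in female embryos. Osr2 encodes an odd-skipped zinc finger protein and Foxd1 a forkhead protein that marks stromal progenitors of the permanent kidney. Prrx1 encodes a paired-type homeodomain protein of limb and facial mesenchyme, and Meis1 and Meis2 encode homeodomain cofactors of Pbx and Hox proteins.

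RefSeq promoters (build GRCm38.p6, 250 bases before to 50 after the start) were matched by symbol for 9 of the 10 genes, with 10 entries in all; Osr2 had none. Those of Tcf21 and Foxd1 are shown because these 2 genes followed each other most closely across the libraries, and that of Nr2f2 because its level was steady. Each is printed 5′ to 3′ on the strand of its gene. Capitals mark matches, on either strand, to the E-box CANNTG and to the TCF/LEF motif CTTTGNT, the site of the nuclear partners of beta-catenin; no match to the nuclear receptor half-site AGGTCA was found in any of the 10 entries.
Tcf21, chr10:22820094-22820393, minus strand: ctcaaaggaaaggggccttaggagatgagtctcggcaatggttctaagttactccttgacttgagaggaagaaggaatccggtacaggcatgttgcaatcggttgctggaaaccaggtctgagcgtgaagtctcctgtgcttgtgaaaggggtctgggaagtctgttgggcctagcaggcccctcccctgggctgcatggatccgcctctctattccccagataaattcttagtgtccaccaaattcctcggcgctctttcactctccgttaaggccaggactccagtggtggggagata
Foxd1, chr13:98353995-98354294, plus strand: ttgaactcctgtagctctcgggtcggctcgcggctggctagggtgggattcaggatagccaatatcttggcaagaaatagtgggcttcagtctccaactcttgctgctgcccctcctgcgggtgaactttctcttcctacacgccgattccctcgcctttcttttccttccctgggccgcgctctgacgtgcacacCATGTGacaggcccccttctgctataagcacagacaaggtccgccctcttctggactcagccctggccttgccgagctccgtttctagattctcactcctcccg
Nr2f2, chr7:70366697-70366996, minus strand: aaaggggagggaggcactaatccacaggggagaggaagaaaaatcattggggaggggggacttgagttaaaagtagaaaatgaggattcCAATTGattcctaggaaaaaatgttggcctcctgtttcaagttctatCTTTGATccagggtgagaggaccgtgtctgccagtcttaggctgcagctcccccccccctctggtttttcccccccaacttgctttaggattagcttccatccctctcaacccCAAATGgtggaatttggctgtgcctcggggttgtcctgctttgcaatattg

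The Tcf21 window held no match to any of the 3 motifs. The Foxd1 window held a single E-box match, at position -54 from the start, and no TCF/LEF match. The Nr2f2 window held E-box matches at -161 and -1 and a TCF/LEF match at -114. E-box matches occurred in 4 of the 10 entries, in Foxd1, Meis1, Nr2f1 and Nr2f2, and in 72.3% of 32851 mouse promoter windows of the same length. TCF/LEF matches occurred in 2 of the 10 entries, of Nr2f1 and Nr2f2, and in 18.6% of all windows; the half-site was in 16.3% of them. These are matches of letters, not sites shown to be bound.

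Each library held at least 28687415 and up to at least 33574278 reads in genes, these being lower bounds. The least covered of the 10 genes, Twist2, had at least 381 reads in every library and the best covered, Nr2f2, at least 21321. Wnt9b itself lay at 24.9, 26.4 and 34.0 TPM (a transcript level corrected for gene length and library size) in controls and at 23.4, 19.2 and 19.0 TPM in knockouts; a level over the whole gene cannot show whether its transcripts are functional. Knockout 3 stood apart from the other knockouts. The chi-square of its reads per degree of freedom was 22.7 against knockout 1 and 19.3 against knockout 2, and 10.7 between knockouts 1 and 2. Among controls it was 9.38 between 1 and 2, 15.2 between 1 and 3 and 7.53 between 2 and 3. Of the 10 factors, 8 were lowest in knockout 3 among the knockouts, as were 31.5% of all tested genes. Differences without that library are therefore given for each of the 10.

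**Figure D1:**
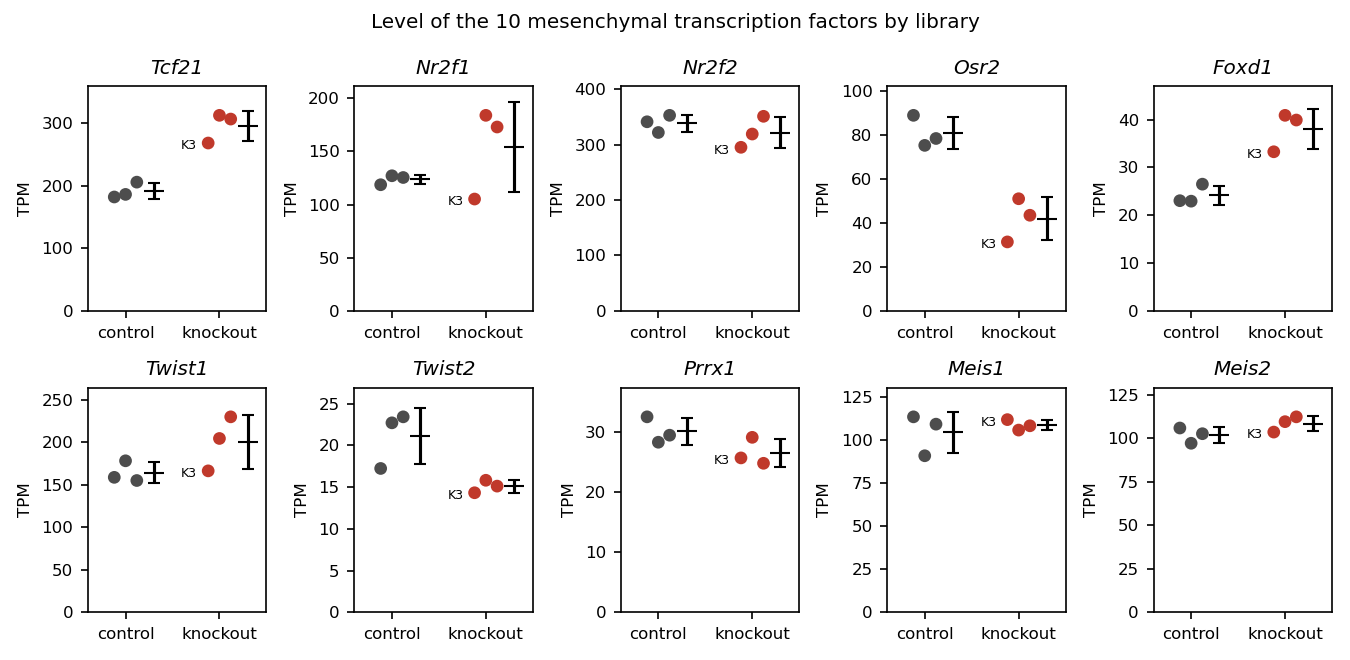
Level of each of the 10 factors in TPM (vertical axes, each from 0) in the 3 control libraries (grey points) and 3 knockout libraries (red points, K3 being knockout 3); bars give the mean and SD of a group. Tcf21, Foxd1, Osr2 and Twist2 show no overlap between the groups, and Nr2f1 is split, with knockout 3 at 105 TPM and knockouts 1 and 2 at 184 and 173 TPM.

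In controls the 10 factors covered a range from 21.1 to 339 TPM. Nr2f2 was highest, at 339 ± 15.6 TPM (mean ± SD, n = 3), followed by Tcf21 at 191 ± 12.6, Twist1 at 164 ± 12.4 and Nr2f1 at 124 ± 4.48 TPM. Each of these 4 lay wholly above the next. Meis1 and Meis2, at 105 ± 12 and 102 ± 4.43 TPM, overlapped and could not be ordered. Osr2 followed at 80.9 ± 7.16 TPM and Prrx1 at 30.1 ± 2.18 TPM. Foxd1 and Twist2, at 24.2 ± 2.02 and 21.1 ± 3.38 TPM, overlapped at the foot of the order. Averaged over the 6 libraries, Nr2f2 and Tcf21 exceeded 97.9% and 97.1% of the tested genes, and Twist2 exceeded 52.1%.

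In knockouts the order of the means was the same except that Foxd1 stood above Prrx1. Tcf21, at 295 ± 24.0 TPM, was still below Nr2f2, at 322 ± 28.0 TPM, but the ranges of these 2 genes overlapped. Foxd1, at 38.0 ± 4.14 TPM, lay wholly above Prrx1, at 26.5 ± 2.28 TPM, and overlapped Osr2, at 42.0 ± 9.91 TPM. The summed level of the 10 genes was 1150.1, 1208 and 1181 TPM in controls 1 to 3 and 1371, 1404 and 1154 TPM in knockouts 1 to 3, so knockout 3 lay within the range of the controls.

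Tcf21 was the 1 factor of the 10 that passed the test, and it rose. It was at 186, 205 and 182 TPM in controls 1 to 3 and at 312, 306 and 268 TPM in knockouts 1 to 3. Every knockout value lay above every control value, and knockout 3 was the lowest of the knockouts. The ratio of the means was 1.55. On the log2(TPM + 1) scale Tcf21 (ENSMUSG00000045680) differed by 0.62 (SE 0.079, 95% interval 0.44 to 0.81; limma adjusted p = 0.0197), the rank of its p being 38 among 17577 genes. For comparison, 0.444% of all tested genes were called. The call was lost, with adjusted p between 0.0760 and 0.114 in limma, on leaving out any 1 of the libraries other than knockout 3, while the difference stayed between 0.58 and 0.69; without knockout 3 it was 0.69 (adjusted p = 0.0105 in limma).

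Foxd1, the forkhead gene of renal stroma, stood with Tcf21. It was at 22.9, 26.5 and 23.0 TPM in controls and at 40.9, 39.9 and 33.3 TPM in knockouts. The groups did not overlap, and the ratio of the means was 1.57. The log2 difference of 0.63 (SE 0.11, 95% interval 0.38 to 0.88) nearly equalled that of Tcf21, but it narrowly missed the threshold (limma adjusted p = 0.0582). Without knockout 3 it was 0.72 and passed (adjusted p = 0.0231 in limma). On leaving out any 1 of the other libraries Foxd1 did not pass, with adjusted p between 0.155 and 0.234 in limma.

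Osr2, the odd-skipped gene, differed in the other direction and by the largest amount of the 10. It was at 75.3, 78.5 and 89.0 TPM in controls and at 51.0, 43.5 and 31.4 TPM in knockouts, again with no overlap. Control levels were 1.93 times those of knockouts. The log2 difference was -0.95 (SE 0.16, 95% interval -1.32 to -0.58; limma adjusted p = 0.0574), which also just missed the threshold. Knockout 3 was the lowest library, and without it the log2 difference was -0.76 and passed (adjusted p = 0.0245 in limma). On leaving out any 1 of the other libraries Osr2 did not pass, with adjusted p between 0.0501 and 0.231 in limma. Osr1, the other odd-skipped gene, lay at 34.0, 36.6 and 39.8 TPM in controls and at 63.6, 60.4 and 28.1 TPM in knockouts, so knockout 3 was the lowest library for both genes, while knockouts 1 and 2 lay below the controls for Osr2 and above them for Osr1. Osr1 did not pass the test (log2 difference 0.37, SE 0.27; limma adjusted p = 0.680).

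Some other ways of testing gave more calls among the 10 and others gave 0. Limma called 0 of the 10 without the mean-variance trend and with libraries blocked by replicate number. It also called 0 on leaving out any 1 library other than knockout 3. Limma-voom on reads recovered from the TPM values called Tcf21 and Foxd1 higher and Osr2 lower (adjusted p = 0.00276, 0.010 and 0.00513), when it called 1.49% of all genes. The authors' deposited table marks the same 3 at an adjusted p under 0.05, with log2 fold changes of 0.64, 0.67 and -0.93, and marks 3.55% of all genes. Limma without knockout 3 called 4, these 3 and Nr2f1, when it called 1.40% of all genes. The groups did not overlap for 4 of the 10, Tcf21 and Foxd1 being higher and Osr2 and Twist2 lower in knockouts, against 16.6% of all tested genes.

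**Figure D2:**
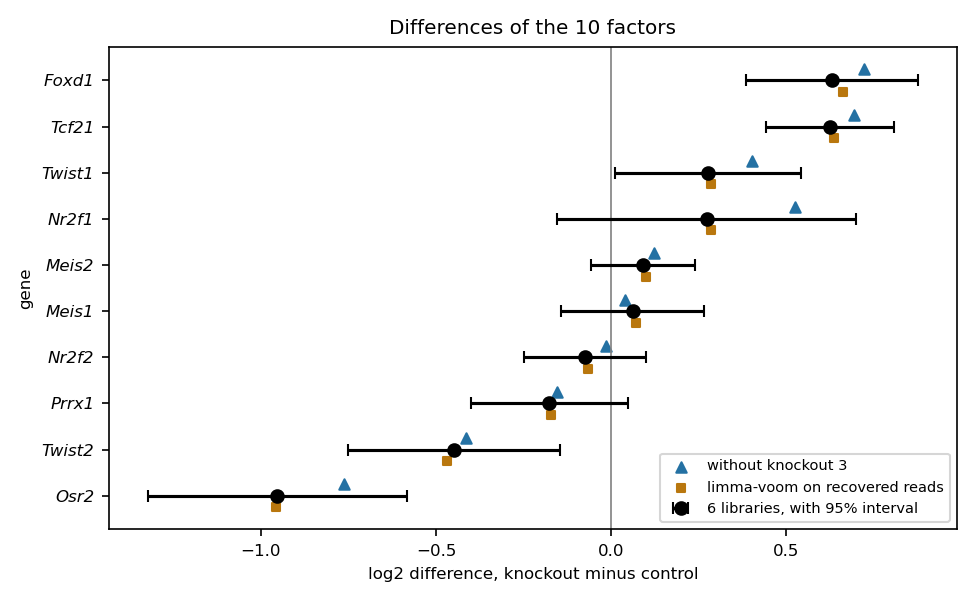
Log2 difference of knockout minus control (horizontal axis) for each factor on the log2(TPM + 1) scale: black points with 95% intervals use all 6 libraries, blue triangles leave out knockout 3, and ochre squares come from limma-voom on recovered reads. The intervals of Tcf21, Foxd1, Osr2, Twist2 and Twist1 lie off 0 before adjustment, and leaving out knockout 3 moves Nr2f1 most, from 0.27 to 0.52.

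The COUP-TF genes did not pass the test. Nr2f2 was at 322, 353 and 341 TPM in controls and at 319, 351 and 295 TPM in knockouts. The ranges overlapped, with knockout 2 inside that of the controls and knockouts 1 and 3 below every control. The 95% interval of the log2 difference of Nr2f2 (-0.076, SE 0.076, limma adjusted p = 0.776) ran from -0.25 to 0.098, that is from 0.841-fold to 1.07-fold. Without knockout 3 the log2 difference was -0.016. Nr2f1 was at 127, 125 and 119 TPM in controls, a narrow band, and at 184, 173 and 105 TPM in knockouts. Knockouts 1 and 2 lay above every control and knockout 3 below every control. The log2 difference over all 6 libraries was 0.27 (SE 0.19, 95% interval -0.15 to 0.70; limma adjusted p = 0.650). It was 0.52 without knockout 3, with an adjusted p of 0.0196 in limma, so 1 library decided that call. The ratio of Nr2f1 to Nr2f2 was 0.395, 0.356 and 0.348 in controls and 0.576, 0.493 and 0.356 in knockouts, and the groups overlapped (exact two-sided permutation p = 0.20; 0.30 adjusted over 3 ratios within families).

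The Twist genes lay on opposite sides of 0. Twist1, a regulator of mesenchymal state from neural crest to limb, was at 178, 155 and 159 TPM in controls and at 204, 229.7 and 166 TPM in knockouts. Knockout 3 fell within the controls and the other knockouts lay above them; the log2 difference was 0.28 (SE 0.12; limma adjusted p = 0.424). It was 0.17 without knockout 2 and 0.40 without knockout 3 (adjusted p = 0.747 and 0.0770 in limma). Twist2, its paralog and the less abundant, was at 22.7, 23.4 and 17.2 TPM in controls and at 15.8, 15.1 and 14.3 TPM in knockouts, with no overlap (log2 estimate -0.45, SE 0.13; adjusted p = 0.241 in limma; -0.41 without knockout 3). The ratio of Twist1 to Twist2 was 7.84, 6.61 and 9.20 in controls and 12.9, 15.2 and 11.6 in knockouts. All 3 knockout ratios exceeded the controls (exact two-sided permutation p = 0.10, the smallest that 3 against 3 allows; 0.30 adjusted over the 3 ratios).

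Of the homeobox genes, Prrx1 was at 28.3, 29.5 and 32.5 TPM in controls. In knockouts it was at 29.1, 24.8 and 25.7 TPM, with overlapping groups and a log2 shift of -0.18 (SE 0.097; adjusted p = 0.572 in limma). Its paralog Prrx2 had a control mean of 57.1 ± 5.11 TPM and a knockout mean of 45.7 ± 3.20 TPM, without overlap (log2 shift -0.31; adjusted p = 0.231 in limma). Meis1 was at 90.9, 109 and 113 TPM in controls and at 106, 108 and 112 TPM in knockouts, and Meis2 at 97.1, 103 and 106 against 109, 112 and 104 TPM. Both sets overlapped. Their 95% intervals ran from -0.14 to 0.27 and from -0.059 to 0.24 around estimates of 0.061 and 0.090 on the log2 scale (adjusted p = 0.851 and 0.673 in limma). Without knockout 3 the log2 differences of Prrx1, Meis1 and Meis2 were -0.16, 0.040 and 0.12. The ratio of Meis1 to Meis2 lay between 0.936 and 1.08 in the 6 libraries.

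Tcf21 was then set against each of the other 9 factors within each library, which cancels any scaling of a library. The ratio was higher in every knockout than in every control for 8 of the 9. All 9 ratios share Tcf21, whose own groups did not overlap, so they are not independent of one another or of its rise. The ratio differed most against Osr2, with a log2 difference of 1.60. It went from 2.47, 2.62 and 2.04 in controls to 6.11, 7.03 and 8.53 in knockouts. Against Twist2 the difference was 1.10, against Prrx1 0.81 and against Nr2f2 0.70, where the ratio went from 0.578, 0.582 and 0.533 to 0.978, 0.872 and 0.908. Against Meis1 and Meis2 it was 0.57 and 0.54. It was smallest among the 8 for Nr2f1 and Twist1, at 0.35 each; without knockout 3 that for Nr2f1 was 0.17. For each of these 8 the exact two-sided permutation p was 0.10, the smallest possible with 3 against 3, and 0.1125 adjusted over the 9 ratios, so no ratio could pass 0.05. The gap was thinnest for Twist1, with 1.326 in the highest control and 1.333 in the lowest knockout, and for Nr2f1, with 1.638 and 1.697.

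Foxd1 was the exception. The ratio of Tcf21 to Foxd1 was 8.10, 7.76 and 7.89 in controls and 7.63, 7.67 and 8.05 in knockouts. The groups overlapped, and the log2 difference of -0.024 compares with an SD of 0.032 among controls and 0.043 among knockouts (exact two-sided permutation p = 0.50). Across 9773 other tested genes with a proper symbol and a mean of at least 10 TPM, Foxd1 had the profile nearest to that of Tcf21, with a root mean square difference of 0.028 between the centred log2(TPM + 1) values of the 6 libraries. Other near profiles were those of Rpp25 (0.044), Hoxd10 (0.068) and Tle6 (0.083). The others of the 10 ranked far lower, from 291 for Twist1 and 999 for Nr2f1 to 9729 for Osr2. This likeness is a description over 6 libraries, most of it carried by the step between the groups.

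**Figure D3:**
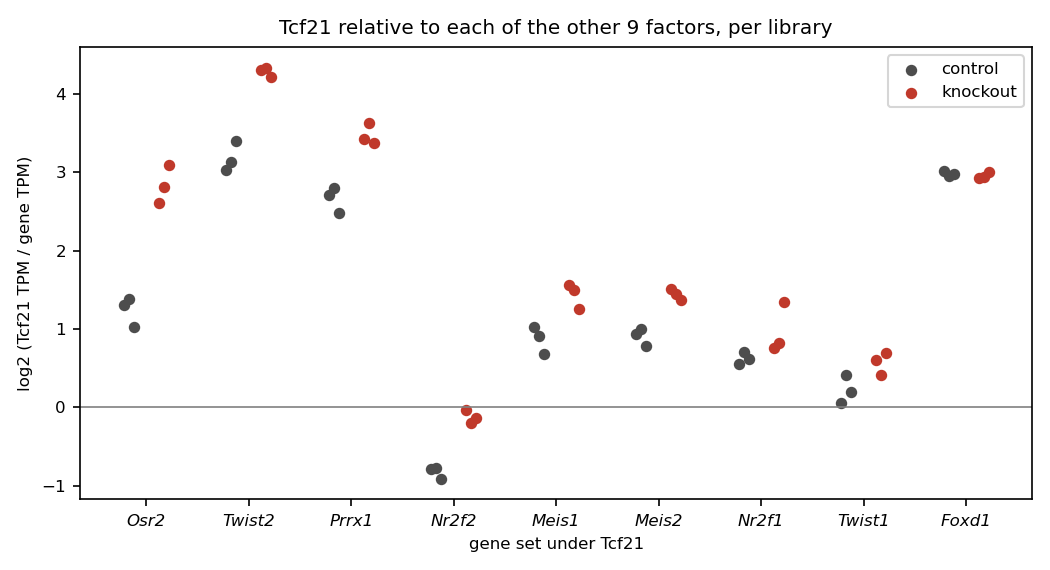
Log2 of the TPM of Tcf21 over that of each of the other 9 factors (vertical axis; factors along the horizontal axis) in each control library (grey) and knockout library (red). Knockout points lie above control points for 8 factors, by 1.60 on average for Osr2, and coincide for Foxd1.

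Other transcription factors related to the 10 or known as their partners were counted from 7 lists. Of 63 tested genes, limma called 0 higher and 1 lower (23 had an unadjusted p under 0.05; 4 by limma-voom; 14 in the authors' deposited table). Over all tested genes the shares were 0.444% in limma, 11.3% at an unadjusted p under 0.05, 1.49% by limma-voom and 3.55% in the authors' deposited table, and all list counts below are to be set against these. The lower one was Hand2, a basic helix-loop-helix gene, which fell from 69.7 ± 1.51 to 45.5 ± 5.36 TPM (log2 difference -0.61; adjusted p = 0.0382 in limma). The median log2 difference of the 63 was 0.049, against -0.0075 over all tested genes. E proteins and their Id inhibitors, which set how much dimer Tcf21 and Twist proteins can form, numbered 7, of which 0 passed (4 at an unadjusted p under 0.05; 2 by limma-voom; 2 in the authors' deposited table). For example, mean levels in controls and knockouts were 309 and 351 TPM for Tcf3 and 429 and 496 TPM for Id3, with overlapping groups. The E protein genes Tcf4 and Tcf12, named after their values were seen, had the smallest p-values of the list and lay on the other side of 0 without overlap, at 33.0 and 25.4 TPM (log2 difference -0.36; adjusted p = 0.119 in limma) and at 115 and 93.0 TPM (log2 difference -0.30; adjusted p = 0.193 in limma). Of 4 other basic helix-loop-helix genes tested, Hand2 included, 2 were under 0.05 unadjusted, 1 was called by limma-voom and 2 in the authors' deposited table. Of 8 odd-skipped and forkhead genes, 0 passed (3 at an unadjusted p under 0.05; 0 by limma-voom; 4 in the authors' deposited table), with a median log2 difference of 0.45. Of 6 paired-type homeobox genes, 0 passed (3 at an unadjusted p under 0.05; 0 by limma-voom; 0 in the authors' deposited table). Of 9 Pbx, Pknox and related partners of Meis proteins, 0 passed (1 at an unadjusted p under 0.05; 0 by limma-voom; 1 in the authors' deposited table). Pbx2, the most abundant of them, had a log2 difference of 0.0085. Of 9 nuclear receptors related to the COUP-TFs, 0 passed (0 at an unadjusted p under 0.05; 0 by limma-voom; 0 in the authors' deposited table), with Rxrb at 76.3 and 80.1 TPM in controls and knockouts. Of 20 other factors of embryonic mesenchyme, 0 passed (10 at an unadjusted p under 0.05; 1 by limma-voom; 5 in the authors' deposited table). Tbx2 and Emx2 led these in level, with log2 differences of -0.060 and -0.092. Of the 10 under 0.05 unadjusted, Tbx18 and Snai2 were higher in knockouts and the rest lower. Tshz1, named after its value was seen, had the smallest p (log2 difference -0.32, adjusted p = 0.0985 in limma).

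The split between knockouts 1 and 2 on one side and knockout 3 on the other, seen in Nr2f1 and Twist1, was also present in related factors. Levels above every control in knockouts 1 and 2 but not in knockout 3 were found for 3 of the 10 factors (Nr2f1, Twist1 and Meis2), for 12 of the 63 related factors and for 7.81% of all tested genes; this pattern was defined after the values were seen. Foxc1, a forkhead gene of paraxial and kidney mesenchyme, was at 24.8, 24.7 and 24.6 TPM in controls and at 44.0, 49.9 and 21.1 TPM in knockouts. Foxf1, a forkhead gene of visceral mesenchyme, was at 1.40, 1.75 and 1.86 TPM in controls and at 34.6, 15.7 and 2.27 TPM in knockouts. Its value in knockout 3 still lay above every control, so it is not among the 12. Foxf2 did not exceed 0.738 TPM in controls and was at 24.1, 6.40 and 0.303 TPM in knockouts. These 3 genes were named after their values were seen, and neither Foxc1 nor Foxf1 passed limma (adjusted p = 0.541 and 0.285), while Foxf2 lay under the filter. Tcf21, Foxd1, Osr2 and Twist2 could not show this pattern as defined, because their groups did not overlap.

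**Figure D4:**
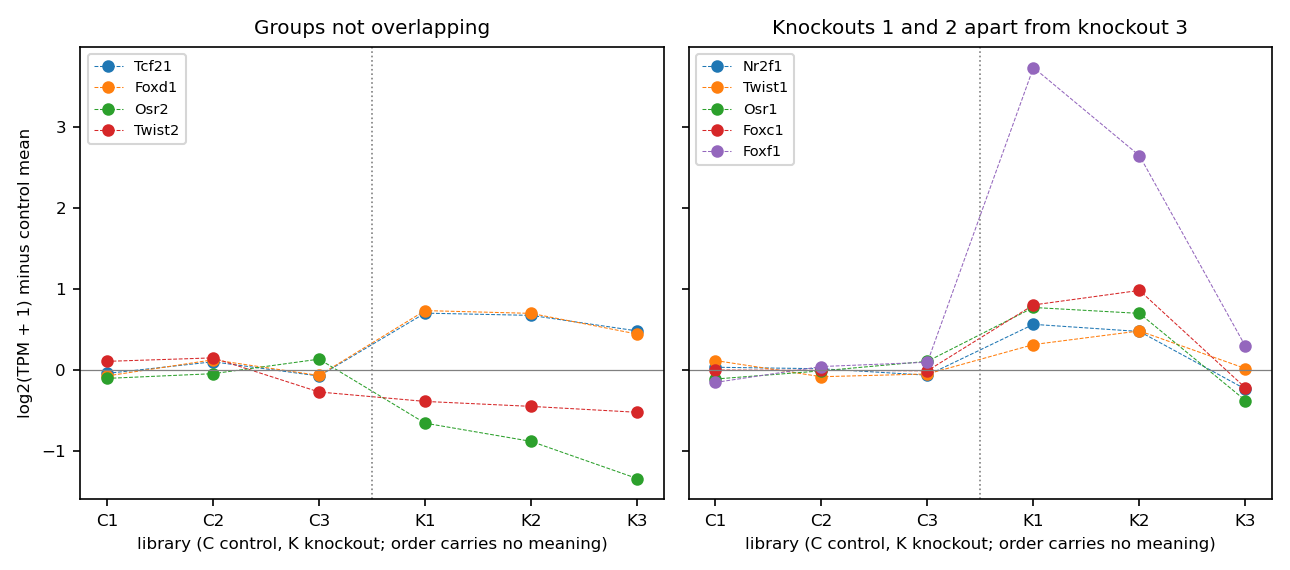
Log2(TPM + 1) minus the control mean (vertical axis) in the 3 control (C) and 3 knockout (K) libraries; dashed lines only join the points of a gene. On the left, Tcf21 and Foxd1 nearly coincide above 0 and Osr2 and Twist2 lie below it in all knockouts; on the right, Nr2f1, Twist1, Osr1, Foxc1 and Foxf1 stand above the controls in knockouts 1 and 2 and, Foxf1 excepted, near or below them in knockout 3.

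The make-up of the libraries was followed with marker lists, since in bulk tissue fewer cells of a type and less RNA per cell cannot be told apart. Mesenchymal matrix and receptor genes summed to between 4889 and 5286 TPM in controls and between 4276 and 5009 TPM in knockouts. Of 14 of them, 0 were higher and 1 was lower (limma; 3 at an unadjusted p under 0.05, 2 by limma-voom, 3 in the authors' deposited table). That gene was Pdgfrb, a receptor of mesenchyme and pericytes, which fell from 229 ± 15.7 to 151 ± 5.14 TPM (log2 difference -0.60; adjusted p = 0.0137 in limma), opposite in sign to Tcf21. Podocytes of the mesonephric glomeruli, which also express Tcf21, were followed by 9 markers in the table that summed to between 455 and 541 TPM in controls and between 482 and 549 TPM in knockouts. Of 7 tested, 0 passed limma (0 at an unadjusted p under 0.05; 0 by limma-voom; 0 in the authors' deposited table). Wt1 and Podxl, the highest, had log2 differences of 0.045 and -0.0066, and Clic5 stayed under 1 TPM in all 6 libraries.

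Markers of the gonadal soma, another site of Tcf21 expression, were also higher in knockouts as a sum. The 17 in the table summed to 232, 197 and 173 TPM in controls 1 to 3 and to 358, 309.8 and 247 TPM in knockouts 1 to 3. Of 15 tested, 3 were higher and 0 lower in limma (10 at an unadjusted p under 0.05; 4 by limma-voom; 7 in the authors' deposited table), namely Nr5a1, Gata4 and Lhx9. The shares over all tested genes were 0.444%, 11.3%, 1.49% and 3.55% by the same 4 measures. Of the 10 under 0.05 unadjusted, Amhr2 and Fst were lower in knockouts (log2 differences -0.48 and -0.72), and the rest were higher. Gata4 rose from 10.8 ± 5.43 to 38.0 ± 4.22 TPM (limma adjusted p = 0.0354). None of the 17 was at 0 in all libraries.  The part of gonadal tissue in the level of Tcf21 was not tested. Markers of duct and tubule epithelium summed to between 869 and 880.2 TPM in controls and between 727 and 803 TPM in knockouts, with Lhx1 lower among 12 tested.

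Some lists moved with single libraries. Neural crest and neuronal markers summed to between 54.0 and 67.9 TPM in controls. In knockouts 1 to 3 the sums were 132, 76.9 and 58.9 TPM. Foxf1, Nr2f1, Tcf21, Foxd1, Osr2, Twist2 and the gonadal sum also fell in this order from knockout 1 to knockout 3. Nr2f2, Twist1, Prrx1, Meis1 and Meis2 did not. In knockout 3 Tcf21 and Foxd1 were thus nearest to the controls, and Osr2 and Twist2 furthest from them. How many of all tested genes fell in this order was not counted. Skeletal muscle markers ran the other way, with no more than 6.18 TPM in any control and a sum in knockouts 1 to 3 of 5.12, 20.1 and 45.0 TPM. Osr2 was lowest in knockout 3, where these were highest, and 8 of the 10 factors were lowest of the knockouts there. The muscle sums of the controls were all low, from 1.93 to 6.18 TPM. Control 3 had the highest of them and also the highest Osr2, 89.0 TPM. Whether these tissues account for any of the values of Nr2f1, Twist1 or Osr2 was not tested. Endothelial markers summed to between 406 and 433 TPM in controls and between 342 and 374 TPM in knockouts. The sums for smooth muscle and pericytes lay between 182 and 198 TPM in controls and between 209 and 225 TPM in knockouts.

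**Figure D5:**
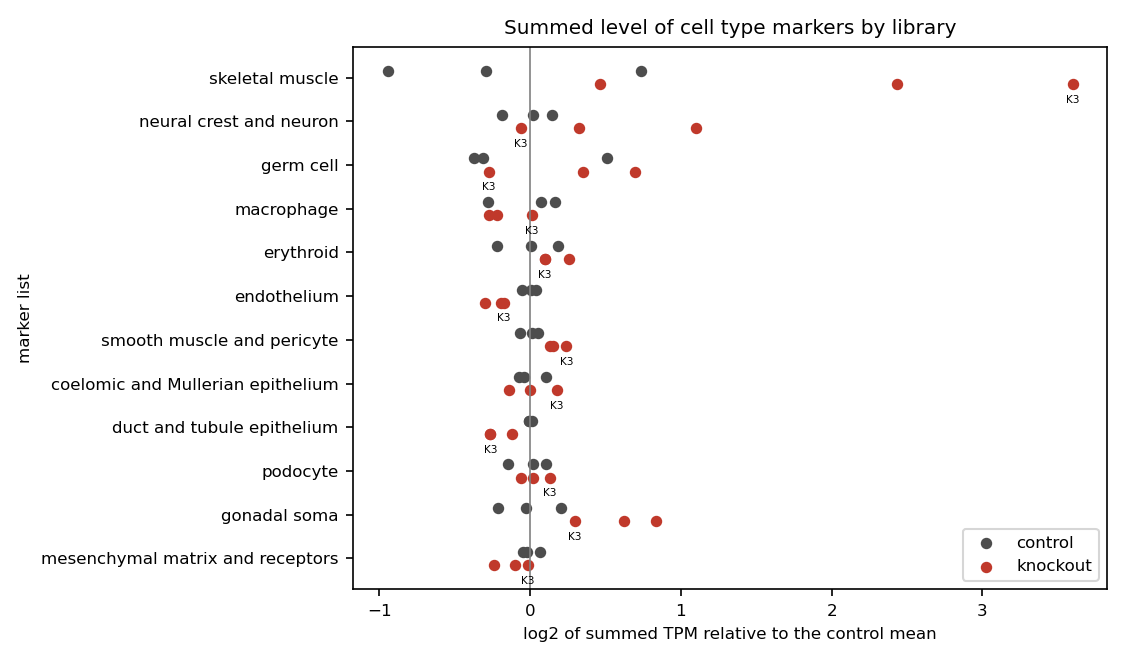
Summed TPM of each marker list relative to its control mean, as log2 (horizontal axis), for control (grey) and knockout (red) libraries, K3 being knockout 3. Gonadal markers lie above the controls in all knockouts, neural markers in knockouts 1 and 2, and muscle markers are highest in knockout 3.

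Sequence shared with other genes bears on how reads could be assigned. In the GENCODE M21 annotation (GRCm38, not the build of the deposited values), none of the 2300 distinct 50-base stretches of Tcf21 transcripts occurred, on either strand, in transcripts of another gene, and the same held for Osr2, Foxd1 and Twist1. The shared part was 1.30% for Nr2f1 and 7.35% for Nr2f2. For Twist2 it was 45.7%, all with the antisense gene Gm29100, whose mean level was 3.45 TPM for controls and 2.28 TPM for knockouts. For Meis1 it was 17%, shared among others with Gm37818, a gene annotated on the same strand. The mean level of Gm37818 was 10.5 TPM for controls and 9.95 TPM for knockouts. Whether counting used strand is unknown from the sources used here, so the level of Twist2, with the largest shared part, is uncertain. The level of Meis1 is uncertain as well, since Gm37818 lies on its strand. Gm10824, a noncoding gene annotated opposite Tcf21, lay at 4.49 TPM on average in controls and 7.11 TPM in knockouts, with overlapping groups.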

How the data were processed

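RNA of 3 control and 3 knockout mesonephroi was measured as described in the report. The deposited table gives TPM per gene and library, together with log2 fold changes and p-values of the authors' own comparison. The submitters' processing notes name DESeq2 and the build GRCm39, and neither they nor the labels name an aligner or strand setting. The authors' log2 fold changes and adjusted p-values are quoted only as from the authors' deposited table.

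Here log2(TPM + 1) was tested with limma 3.58.1 (R 4.3.3; empirical Bayes with a mean-variance trend) on genes with at least 1 TPM in at least 3 libraries, and p-values were adjusted by the Benjamini-Hochberg method over all 17577 of them, with a threshold of 0.05. A difference on this scale understates the change of low genes. Ratios within a library were compared with exact two-sided permutation tests. Whole reads were recovered from the TPM values for all 20033 genes (within 0.01 of a read); any divisor that a gene's counts share in every library cannot be seen, so they are lower bounds, and limma-voom was run on them as an alternative chosen after seeing the data. The script was tested on simulated data.

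The 10 genes, the related lists and the marker lists were chosen with earlier results of these data known. All 10 genes are named; of each list, those past the test (up to 4), or otherwise at most 2 of the highest level, are named; the 5 genes nearest to Tcf21 were taken. A few genes that this rule selects are not reported here. Same-numbered libraries did not deviate together (correlations -0.064, 0.050 and -0.051), so no pairing by number was seen. With 3 libraries a group and no litter in the labels, these values cannot exclude pairing. Alternatives were other scalings, filters and pseudocounts, no trend, a replicate block and leaving out each library.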

Additional observations from a re-analysis of the deposited data

How the results depend on the processing

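Under limma-voom on recovered reads 3 of the 10 factors and 284 genes in all were called. Without the mean-variance trend 0 of the 10 and 28 genes were called, and Tcf21 kept its log2 difference of 0.62 (limma adjusted p = 0.109). With the replicate block 0 of the 10 and 17 genes were called, and Tcf21 differed by 0.62 (limma adjusted p = 0.0589). Whether the numbers pair the libraries is unknown from the labels. Leaving out 1 library at a time gave 0 to 4 calls among the 10, 13 to 242 in all (242 without knockout 3), and a Tcf21 log2 difference of 0.58 to 0.69 (limma adjusted p 0.0105 to 0.114). Meis1 ranged from -0.035 to 0.12, with its sign reversed at -0.035 without control 1. Median-of-ratios scaling, no filter, a pseudocount of 0.1 and removal of erythroid genes each kept the call of Tcf21, with 69, 80, 74 and 82 calls in all. The causes of these shifts were not tested. With 3 libraries a group, exact tests could not go below 0.10.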
